A study of Mus musculus with 24 samples.

Results

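The comparison described here asks whether loss of Thumpd1 changes the same genes in the cerebellum and in the liver of the mouse. For each gene the knockout (KO) effect in a tissue is the log2 ratio of KO to wild type (WT), and the quantity of interest is the effect in cerebellum minus the effect in liver, called the difference below. Genes entered if they reached a CPM of 1 (counts scaled to library size) in at least 4 of the 8 libraries of each tissue, which kept 11489 of 55450 annotated genes. The comparison used 16 of the 24 libraries in the series, with 4 WT and 4 KO libraries per tissue, and the testis libraries entered as an alternative only. All mice were on a C57BL/6 background and 6 to 12 weeks old. KO mice were homozygous for a Thumpd1 allele made with CRISPR-Cas9 and guides against exons 1 and 4, and WT mice were age-matched littermates unless noted otherwise. Several edited lines were made, and the labels do not say which of them gave these libraries. The labels allow either sex, and transcripts of the Y-linked genes Ddx3y, Kdm5d and Uty were present at 11.5 CPM or more in all 16 libraries. Housing followed a cycle of 12 h light and 12 h dark, and the hour of tissue collection was not given in the sources used here.

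Thumpd1 is an RNA-binding partner of the acetyltransferase Nat10, and together they place N4-acetylcytidine on the D-arm of serine and leucine tRNAs. When tRNAs are uncharged or ribosomes stall, the kinase Gcn2 (gene Eif2ak4) can phosphorylate the initiation factor eIF2alpha, which lowers general translation and favours the transcription factor Atf4. Atf4 is known to drive genes for amino acid uptake, amino acid synthesis and tRNA charging in a program named the integrated stress response (ISR). Liver is the main site of lipid and plasma protein synthesis, while cerebellum consists mostly of granule neurons, with Purkinje neurons and glia.

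Total counts ran from 16353797 to 24728845 per library in cerebellum and from 18145725 to 37889615 in liver. Thumpd1 itself had 406 to 539 counts in WT and 0 to 2 in KO cerebellum, and 248 to 325 in WT and 0 to 4 in KO liver, so every label matched its genotype. The labelled tissues carried their markers. Summed CPM of 14 hepatocyte markers lay between 94120 and 106000 in WT liver and between 108500 and 142000 in KO liver. In cerebellum the sum was 6.37 to 702.5 in WT and 10.4 to 237 in KO. There 4 of the 14 were at 0 in each genotype (Hnf4a, Fgb and Serpina1a in both) and 4 at 1 CPM or more. Most of the cerebellum sum was Ttr, which choroid plexus also expresses, with means of 342.8 CPM in WT and 113.5 CPM in KO. Summed CPM of 11 granule neuron markers was 5595 to 5808 in WT and 5147 to 5532 in KO cerebellum, and 264.4 or less in liver. The hepatocyte sum was thus higher in KO liver and the granule neuron sum lower in KO cerebellum, each without overlap. The part of cell composition in the KO effects was not tested. Some libraries with neighbouring numbers resembled each other. Deviations from the group mean correlated at 0.45 between WT cerebellum 1 and 2 and at 0.41 between 3 and 4, against -0.75 to -0.69 for the other pairs of that group, and at 0.33 between KO liver 7 and 8. The other neighbours had values of -0.33 and -0.01 in WT liver, -0.27 and -0.11 in KO cerebellum and -0.08 in KO liver. In WT liver and KO cerebellum these overlapped the values of pairs that are not neighbours. Counts were also compared by chi-square per gene, where lower is closer. WT liver 1 and 2 (10.7), KO liver 5 and 6 (39.7) and KO cerebellum 5 and 6 (5.54) were the closest pairs of their groups. WT liver 3 and 4 (436) were the farthest of theirs. KO liver 7 and 8 (140) and KO cerebellum 7 and 8 (7.03) lay among the other pairs. The labels do not say whether such libraries share an animal, so p-values measure the spread between libraries. In liver, 6 abundant noncoding RNAs took 17.5% to 31.0% of counts, with WT 4, KO 5 and KO 6 above 25%. WT liver 4 also held Xist at 3.93 CPM, where the other 15 libraries lay at 0.205 CPM or less.

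The KO effect differed between the tissues for 971 of the 11489 genes, or 8.45%, at an adjusted p below 0.05 in limma-voom with Benjamini-Hochberg adjustment. It was higher in cerebellum for 523 genes (4.55%) and lower for 448 genes (3.90%). In this fit, which gives each gene a shared spread in both tissues, liver carried most of it. With weights per tissue the numbers of calls were closer, as given below. The fit with the shared spread called 1919 genes (16.7%) in liver and 105 (0.914%) in cerebellum, and 740 of the 971 genes were called in liver only. Another 34 were called in cerebellum only, 12 in both tissues with opposite signs (0.104% of the genes tested), 4 in both with the same sign and 181 in neither tissue alone. The median absolute KO effect of the 971 genes was 0.34 in liver and 0.13 in cerebellum on the log2 scale, beside 0.14 and 0.08 over all genes tested. A total of 95 genes differed by at least 1 on the log2 scale, 61 upwards and 34 downwards. Across genes, with Thumpd1 left out, the effects in the 2 tissues had a Pearson's r of 0.04 and a Spearman's rho of -0.11, where genes are not independent and share the library preparation. With Thumpd1, Pearson's r was 0.12.

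**Figure D1:**
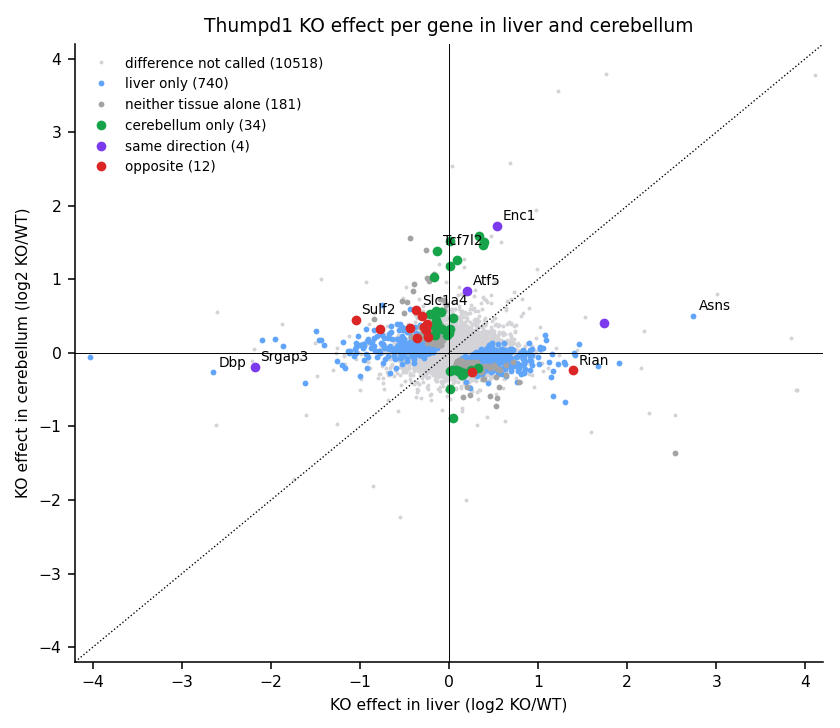
KO effect per gene in liver (x axis, log2 KO/WT) and cerebellum (y axis, log2 KO/WT). Colours show the class of the 971 genes whose difference was called, small light grey points the other genes tested, and the dotted line marks equal effects; Thumpd1 is not drawn and 4 genes lie beyond the axes. The blue points of the 740 genes called in liver only stretch along the x axis near 0 on the y axis.

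The spread between replicates differed by tissue. The median SD within a group was 0.16 in liver and 0.09 in cerebellum on the log2 CPM scale, and the fit above holds them to one spread per gene. With sample weights estimated for each tissue, 844 genes were called in cerebellum and 932 in liver, 903 differed between the tissues and 41 had opposite effects. The size of the excess of liver calls thus depends on the shared spread, as do the shares of 16.7% and 0.914% set beside lists below. Leaving out single libraries gave 562 to 1407 genes with a difference, with 611 without KO cerebellum 5, 562 without KO cerebellum 7, 633 without WT cerebellum 3 and 584 without WT cerebellum 4. These fits gave 40 to 182 calls in cerebellum and 4 to 21 genes with opposite effects. Without any model, the 4 WT and the 4 KO libraries did not overlap for 14.0% of genes in cerebellum and for 15.4% in liver, and among the 971 genes for 321 and 665. They were apart in both tissues in opposite directions for 140 of the 971 genes and for 146 (1.27%) of all genes. When neighbouring libraries were summed, which leaves 2 samples per group and was chosen after seeing the data, 4 genes passed (Srgap3, Dpy19l3, Sulf2 and Pltp), and no gene had opposite effects.

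The 12 genes with opposite effects included Slc1a4, Aars and Sesn2, from the lists of amino acid transporters, cytosolic tRNA synthetases and Atf4 effectors, and all 3 were higher in KO cerebellum and lower in KO liver. Slc1a4 carries alanine, serine and other neutral amino acids into cells. Its level in cerebellum was 13.7, 14.3, 14.2 and 13.6 CPM in WT and 21.7, 21.2, 21.8 and 18.7 CPM in KO. In liver it was 13.3, 13.0, 12.6 and 12.2 CPM in WT and 10.1, 9.25, 10.3 and 9.67 CPM in KO. The genotypes did not overlap in either tissue. The KO effect was 0.58 ± 0.06 (SE) in cerebellum and -0.37 ± 0.08 in liver, a difference of 0.95 ± 0.10 on the log2 scale (adjusted p = 3.05e-05). Aars, which encodes the enzyme that charges alanine tRNAs, read 95.5, 101, 100.1 and 99.8 CPM in WT and 124, 121, 132 and 129.7 CPM in KO cerebellum. In liver it read 358, 355, 352 and 315 CPM in WT and 267, 272, 297 and 297 CPM in KO, again with no overlap. Its difference was 0.64 ± 0.07 (adjusted p = 4.45e-05), made of 0.36 in cerebellum and -0.28 in liver. A small RNA gene, Gm24103, overlaps an exon of Aars on the other strand, and the strand setting of the counting was not given. Sesn2 encodes sestrin 2, a leucine-binding inhibitor of mTORC1, and differed by 0.80 ± 0.14 (adjusted p = 0.00213). Its 4 KO libraries in cerebellum (8.55 to 10.2 CPM) lay above the 4 WT libraries (6.05 to 7.42 CPM), while in liver KO 6 fell inside the WT range of 15.1 to 18.5 CPM.

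The CARE core, written here as TGATGNAA, is the sequence through which Atf4 is known to act on amino acid genes, so promoters were searched for it. Promoters span 250 bases before to 50 bases after a gene's start in RefSeq (GRCm38.p6), and the motif was sought on both strands. It occurred in 3.97% of 32851 promoters and in 2.61% of the 8581 tested genes that matched by symbol. Among those with a promoter in the table, 5 of 16 tested cytosolic tRNA synthetases held it (Aars, Gars, Iars, Tars and Yars), 4 of them among the 5 whose KO effect differed. It occurred in 1 of 11 tested transporters (Slc1a4), 2 of 14 genes of amino acid synthesis (Asns and Got1) and 4 of 9 Atf4 effectors, where of the 4 called ones Vldlr held it and Sesn2, Xpot and Gpt2 did not. Among called genes it occurred in 3.23% of those with a higher effect in cerebellum and in 4.27% of those with a lower one. The promoters shown were chosen because they hold a match. Capitals below mark the matches in Aars (chr8:111033592-111033891, + strand), Slc1a4 (chr11:20332664-20332963, - strand), Iars (chr13:49681880-49682179, + strand) and Asns (chr6:7693160-7693459, - strand), each given 5′ to 3′ on the gene's strand. A match describes the letters and is no proof of binding.
Aars: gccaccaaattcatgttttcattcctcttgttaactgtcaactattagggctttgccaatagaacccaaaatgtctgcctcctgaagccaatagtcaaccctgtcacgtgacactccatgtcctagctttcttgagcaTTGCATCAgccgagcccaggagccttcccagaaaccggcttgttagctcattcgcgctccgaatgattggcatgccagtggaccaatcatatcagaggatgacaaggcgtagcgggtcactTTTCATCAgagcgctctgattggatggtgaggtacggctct
Slc1a4: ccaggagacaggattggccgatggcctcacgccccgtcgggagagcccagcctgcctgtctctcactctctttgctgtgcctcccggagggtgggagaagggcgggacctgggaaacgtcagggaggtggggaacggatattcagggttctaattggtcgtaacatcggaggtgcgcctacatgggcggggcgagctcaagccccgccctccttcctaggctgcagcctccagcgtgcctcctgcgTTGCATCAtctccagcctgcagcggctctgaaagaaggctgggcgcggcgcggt
Iars: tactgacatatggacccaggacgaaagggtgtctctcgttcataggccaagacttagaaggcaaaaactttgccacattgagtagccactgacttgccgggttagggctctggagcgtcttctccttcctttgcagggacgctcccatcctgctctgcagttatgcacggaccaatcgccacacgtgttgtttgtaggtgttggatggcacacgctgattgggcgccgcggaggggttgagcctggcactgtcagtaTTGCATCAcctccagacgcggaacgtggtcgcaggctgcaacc
Asns: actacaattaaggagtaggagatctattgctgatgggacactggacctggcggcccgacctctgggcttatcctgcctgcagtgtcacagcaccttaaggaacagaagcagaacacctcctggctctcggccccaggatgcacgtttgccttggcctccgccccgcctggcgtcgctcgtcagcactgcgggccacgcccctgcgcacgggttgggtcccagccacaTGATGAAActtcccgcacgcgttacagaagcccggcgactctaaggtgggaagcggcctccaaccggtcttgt
The first match in Aars begins 112 bases before the start site, and the matches in Slc1a4 and Asns begin 4 and 23 bases before it. Iars has its match 7 bases after the start. Aars, Slc1a4 and Iars had a higher KO effect in cerebellum, and Asns a higher one in liver.

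The called genes that charge tRNAs all differed in one direction. All 24 cytosolic tRNA synthetases and their partner proteins were tested, and the KO effect was higher in cerebellum for 7 (Aars, Mars, Yars, Iars, Sars, Wars and Gars) and lower for 0, 29.2% against the 8.45% of all genes. Their median KO effect was 0.14 in cerebellum and -0.05 in liver, where the medians of all genes were near 0. In cerebellum 6 rose, where 0.914% of all genes were called. In liver 4 fell and 1 rose, where 16.7% of all genes were called. Mars, the methionine enzyme, read 29.9 to 32.1 CPM in WT and 38.9 to 40.2 CPM in KO cerebellum, and 89.0 to 103 CPM in WT against 82.1 to 93.6 CPM in KO liver. Its exons overlap Ddit3 on the other strand. Sars, the serine enzyme, rose by 0.32 in cerebellum (adjusted p = 0.000667) and had an estimate of 0.01 in liver. Cars rose in both tissues, by 0.46 and 0.32, and its difference of 0.15 did not pass (adjusted p = 0.48). Of the 20 mitochondrial tRNA synthetases none was called in liver, in cerebellum or for the difference, beside 16.7%, 0.914% and 8.45% of all genes, and their median difference was 0.12.

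**Figure D2:**
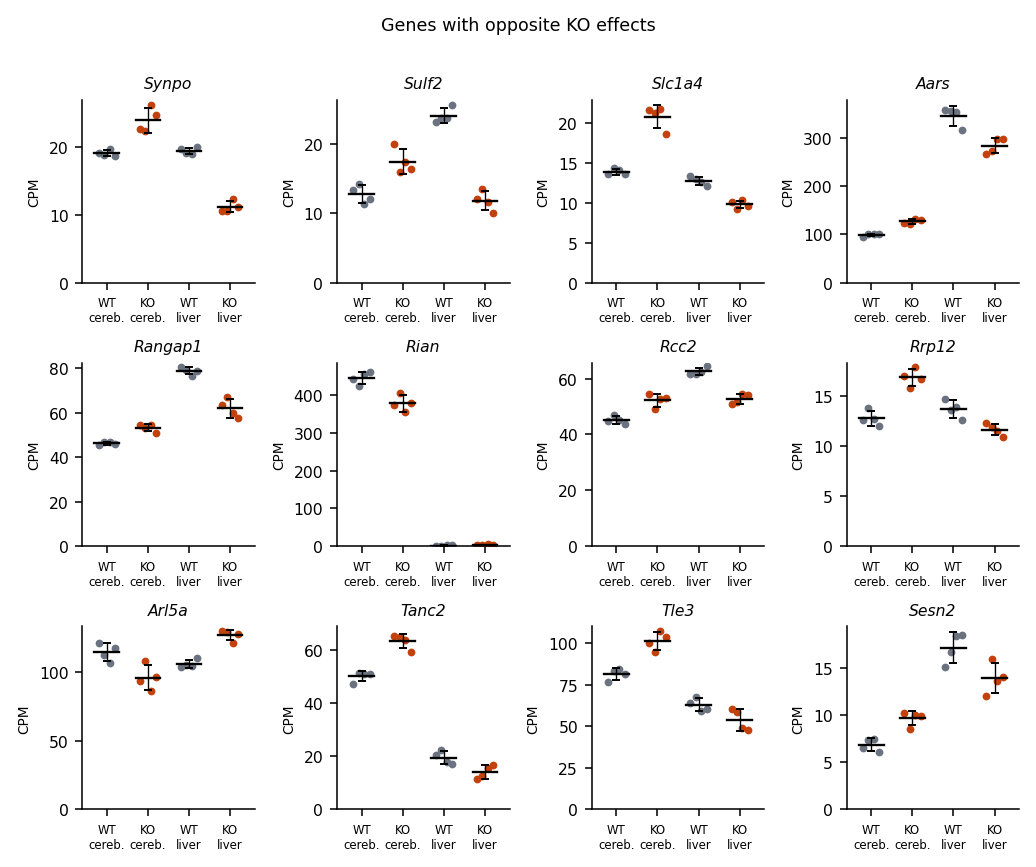
Level of the 12 genes with opposite KO effects, in CPM (y axes, from 0), for WT (grey) and KO (orange) libraries of cerebellum and liver. Points are libraries, black lines group means and bars SD (n = 4). For Slc1a4 the KO points lie above WT in cerebellum and below WT in liver, while for Rian they lie below and above.

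Of 17 tested amino acid transporters, 4 had a higher KO effect in cerebellum, 23.5% against 4.55% of all genes, and 0 a lower one. Besides Slc1a4 these were Slc3a2, the heavy chain shared by several exchangers, the glycine transporter Slc6a9 and the taurine transporter Slc6a6. The call of Slc6a6 was lost in 2 of 28 alternative fits. Slc3a2 differed by 0.58 ± 0.09 (adjusted p = 0.000817) and its genotypes were apart in both tissues, at 47.0 to 51.1 against 54.6 to 59.3 CPM in cerebellum and at 47.3 to 52.7 against 35.1 to 42.7 CPM in liver. Slc6a9 fell in liver from 63.4 to 83.1 CPM in WT to 36.9 to 52.1 CPM in KO, with an estimate of 0.12 in cerebellum. Slc7a5 and Slc7a1, which carry large neutral and cationic amino acids, rose in cerebellum by 0.47 and 0.42 and were not called for the difference (adjusted p = 0.069 and 0.57). Among 12 effector genes known to depend on Atf4, the KO effect was higher in cerebellum for Xpot, Gpt2 and Sesn2 and lower for the lipoprotein receptor Vldlr, 33.3% called against 8.45% of all genes, with the call of Vldlr lost in 8 of the 27 alternative fits (other tests, scalings, filters, weights and left-out libraries) that tested it. Xpot, which exports tRNA from the nucleus, read 99.8 to 104 CPM in WT and 80.6 to 85.3 CPM in KO liver, and 41.6 to 43.5 against 44.7 to 46.5 CPM in cerebellum. The median difference of the 12 was 0.33, from 0.16 in cerebellum and -0.15 in liver.

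Asns went the other way. It encodes asparagine synthetase, a classical Atf4 target, and its liver libraries read 3.32, 2.33, 1.09 and 1.18 CPM in WT and 19.3, 18.1, 8.92 and 10.4 CPM in KO. In cerebellum the values were 25.0, 24.2, 23.9 and 23.2 CPM in WT and 31.7, 35.0, 34.1 and 36.1 CPM in KO. KO lay above WT without overlap in both tissues. The effect was 2.74 ± 0.34 in liver, or 6.67-fold (adjusted p = 3.85e-05), and 0.50 ± 0.14 in cerebellum (adjusted p = 0.094), with a difference of -2.23 ± 0.36 (adjusted p = 0.00145). Of the 15 other tested genes of amino acid and one-carbon synthesis, Shmt2, Glul and Aldh1l1 had a higher effect in cerebellum and none a lower one. With Asns the list had 25% called against 8.45% of all genes. The calls of Glul and Aldh1l1 were lost in 8 and 5 of 28 alternatives. Glul, glutamine synthetase, fell by 0.31 in liver with an estimate of 0.10 in cerebellum.

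Of 20 tested sensors and regulators of the response, the KO effect was higher in cerebellum for Atf5 and Gcn1l1 and lower for 0, a share of 10% near the 8.45% of all genes with Gcn1l1 lost in 10 of 28 alternatives, and the median difference was 0.08. Atf5, a transcription factor related to Atf4, rose in both tissues. It read 11.2, 12.0, 11.8 and 10.7 CPM in WT and 21.2, 20.2, 20.6 and 19.8 CPM in KO cerebellum, and 599, 631, 654 and 645 CPM in WT and 691, 706, 787 and 728 CPM in KO liver. The rise was 0.84 in cerebellum and 0.20 in liver, a difference of 0.64 ± 0.09 (adjusted p = 0.000324), and exons of Il4i1 and Nup62 overlap it on the other strand. Atf4 mRNA was 52.0 to 57.4 CPM in WT and 66.4 to 70.9 CPM in KO cerebellum, without overlap, but its difference of 0.34 ± 0.18 did not pass (adjusted p = 0.246). With weights per library it was 0.54 and passed (adjusted p = 0.0171), the one alternative of 28 in which it did. In liver its WT libraries split into 138 and 139.9 CPM for 1 and 2 and 87.2 and 85.4 CPM for 3 and 4, which enclosed the KO range of 103 to 119 CPM. Ddit3 had nearly equal estimates of 0.48 and 0.40, and Trib3 of 0.64 and -0.30, with adjusted p of 0.842 and 0.18 for their differences. The difference of Trib3 passed in 1 of 27 alternatives, DESeq2, with a value of 1.05 (adjusted p = 0.0279). Eif2ak4, the gene of Gcn2, had estimates of 0.01 and 0.03. Nat10 had estimates of 0.13 and -0.09, a difference of 0.23 ± 0.09 (adjusted p = 0.109). None of the 6 tested THUMP-domain and tRNA acetylation genes was called for the difference, which is too few genes to set against the 8.45% of all genes, and for Thumpd1 the counts in KO are too low to compare its loss between tissues.

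**Figure D3:**
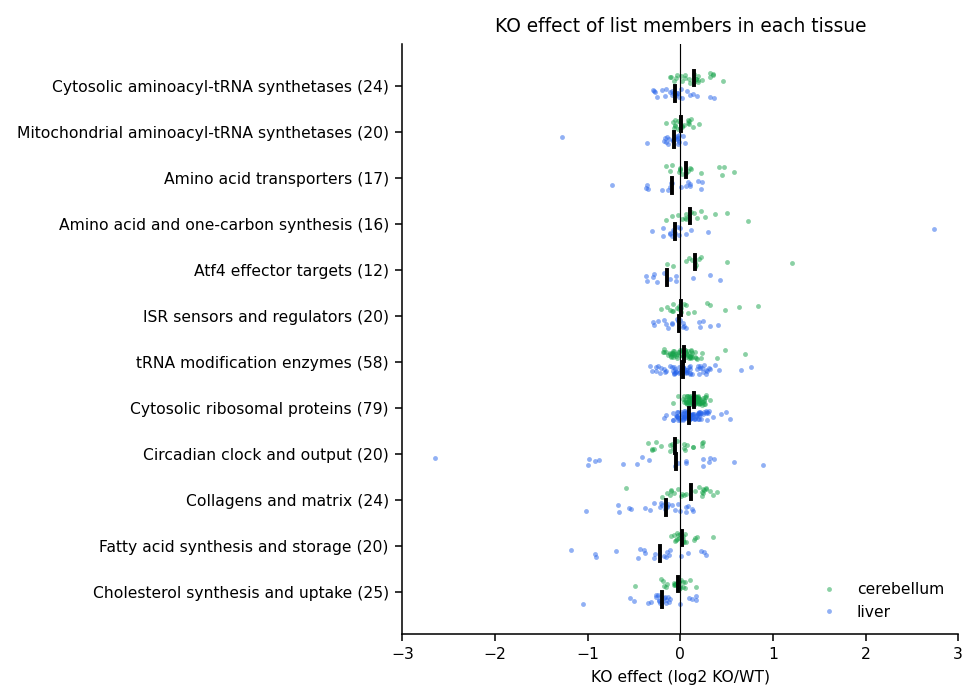
KO effect (x axis, log2 KO/WT) of the tested members of 12 gene lists in cerebellum (green) and liver (blue), with the number of members in brackets. Each point is a gene and each black bar a median. For the cytosolic tRNA synthetases the medians are 0.14 in cerebellum and -0.05 in liver, and for fatty acid synthesis 0.02 and -0.22.

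The other 9 genes with opposite effects had varied roles. Synpo encodes synaptopodin, an actin-associated protein of dendritic spines and podocytes. It read 18.7 to 19.7 CPM in WT and 22.3 to 26.2 CPM in KO cerebellum, and 18.9 to 19.9 CPM in WT against 10.6 to 12.3 CPM in KO liver, a difference of 1.10 ± 0.10 (adjusted p = 2.94e-06). Sulf2, a sulfatase that trims heparan sulfate outside the cell, was 11.4 to 14.3 CPM in WT and 16.02 to 20.04 CPM in KO cerebellum, and 23.2 to 25.6 CPM in WT against 10.1 to 13.5 CPM in KO liver. Its difference was 1.49 ± 0.13 (adjusted p = 2.94e-06), and Ncoa3 overlaps it on the other strand. Rangap1, which activates the GTPase Ran in nuclear transport, differed by 0.56 with Zc3h7b on the other strand, Rcc2, a chromosome passenger protein of the same family as the Ran exchange factor, by 0.45, and Rrp12, needed for export of ribosomal subunits, by 0.65. Tanc2, a postsynaptic scaffold, and Tle3, a corepressor, differed by 0.77 and 0.57. All 5 were higher in KO cerebellum and lower in KO liver.

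Arl5a and Rian were lower in KO cerebellum and higher in KO liver. Arl5a, a small GTPase of the Golgi, differed by -0.52 ± 0.08 (adjusted p = 0.0012), and KO 6 at 108 CPM fell within the WT range of 106 to 121 CPM in cerebellum. Rian is a noncoding RNA of an imprinted region that hosts small nucleolar RNAs. It was abundant in cerebellum, at 425 to 461 CPM in WT and 355 to 408 CPM in KO, and low in liver, at 1.12 to 1.80 CPM in WT and 3.00 to 4.12 CPM in KO. Its liver effect of 1.39 was thus measured at a few CPM. Meg3, from the same imprinted region, rose in liver from 4.30 to 5.39 CPM in WT to 9.72 to 15.0 CPM in KO and had an estimate of -0.00 in cerebellum. Across the 12 genes, 9 had WT and KO libraries apart in both tissues, Arl5a overlapping in cerebellum and Tle3 and Sesn2 in liver.

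Only 4 genes were called for the difference and in both tissues with the same sign, Srgap3, Atf5, Enc1 and Sntg1. Of these, Sntg1 passed the filter in liver only through its KO libraries, so its entry depended on the rise itself. Srgap3, a GTPase-activating protein of Slit-Robo signalling, had the smallest p of all genes. It read 14.4, 12.5, 14.7 and 14.2 CPM in WT and 3.27, 2.13, 3.51 and 3.04 CPM in KO liver, and 413, 426, 431 and 422 CPM in WT and 381, 367, 375 and 356 CPM in KO cerebellum. The fall was 0.22-fold of WT in liver and 0.874-fold in cerebellum, a difference of 1.99 ± 0.13 (adjusted p = 1.68e-07), with the model Gm44081 on the other strand. Sntg1, a syntrophin, rose from 0.562 to 0.826 CPM to 2.11 to 2.61 CPM in liver and from 7.14 to 8.26 CPM to 9.41 to 11.0 CPM in cerebellum. All its WT liver values lay below the 1 CPM of the filter, so its liver effect was measured near the floor. Enc1, an actin-binding protein of neurons, rose 3.31-fold in cerebellum and 1.45-fold in liver.

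Most of the named genes with large differences owed them to liver. Dbp, a transcription factor whose mRNA cycles over the day, read 10.9, 8.61, 14.6 and 14.4 CPM in WT and 2.61, 2.85, 1.58 and 1.30 CPM in KO liver. In cerebellum it read 36.0 to 43.6 CPM in WT and 29.2 to 35.8 CPM in KO, just below the WT range, and the effect of -0.27 did not pass (adjusted p = 0.239). The difference was 2.38 ± 0.29 (adjusted p = 0.000102), and Sphk2 overlaps Dbp on the other strand. Dpy19l3, which attaches mannose to tryptophan residues of secreted proteins, fell from 21.9 to 30.8 CPM to 5.66 to 8.37 CPM in liver and lay within 43.5 to 50.1 CPM in cerebellum. The retinoic acid hydroxylase Cyp26b1 shows how libraries can split within a group, since its KO liver values were 26.4 and 23.5 CPM in 5 and 6 and 4.08 and 4.79 CPM in 7 and 8. Its difference of 2.29 ± 0.49 had an adjusted p of 0.00871 and did not pass with edgeR or DESeq2. Further genes with a fall in liver behind the difference were Gal3st1 (2.15), Gadd45g (1.80), Tiam2 (1.64) and Lamc3 (1.61), given as differences on the log2 scale. A model named Myl12b, called in neither tissue alone, differed by 2.00, but 2 models carry that symbol and reads may be split between them.

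Genes with a rise in liver included Srrm4, a splicing factor of neurons, at 4.26 to 6.91 CPM in WT and 12.8 to 22.8 CPM in KO liver against 103 to 122 and 96.0 to 104 CPM in cerebellum. Its difference was -2.05 ± 0.21 (adjusted p = 2.2e-05), with Srrm4os on the other strand. Enho, the gene of the secreted peptide adropin, Id1, an inhibitor of helix-loop-helix factors, and Abcd2, a peroxisomal transporter of very long fatty acids, had differences of -1.44, -1.42 and -1.42. Caprin2 (-1.37), Klhdc7b (-1.25), Ankrd49 (-1.17), Arl4a (-1.14) and Zmat1 (-1.12) followed, all called in liver and not in cerebellum.

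**Figure D4:**
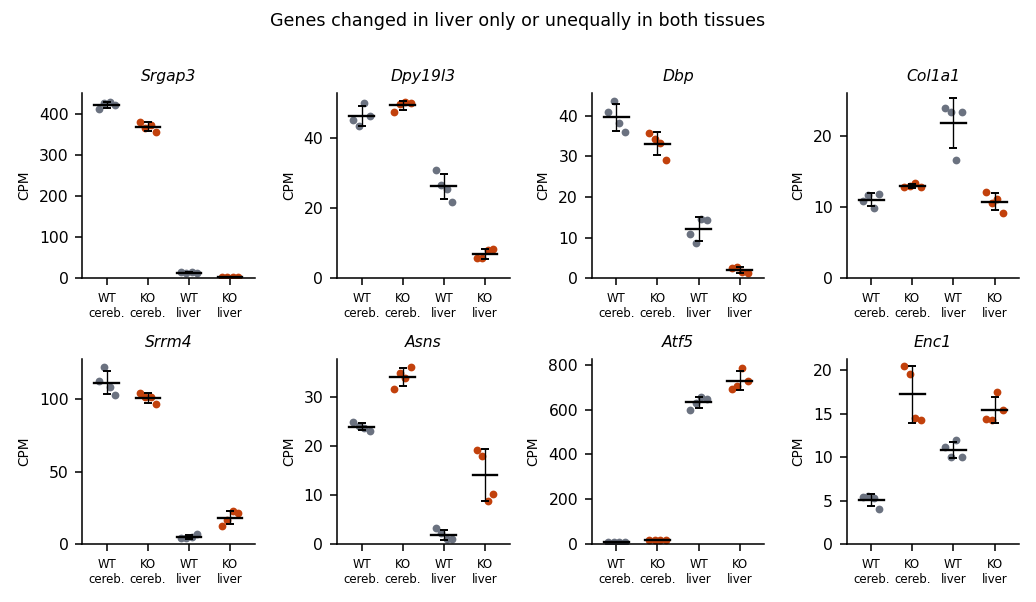
Level in CPM (y axes, from 0) of 8 genes that changed in liver only or unequally in both tissues, for WT (grey) and KO (orange) libraries. Points are libraries, black lines group means and bars SD (n = 4). Dbp and Srgap3 drop in KO liver and Asns and Srrm4 climb, where the fold from WT to KO is larger in liver than in cerebellum although the shift in CPM need not be.

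Clock genes were among those with a difference more often than all genes tested. Of 20 tested genes of the circadian clock and its output, the KO effect was higher in cerebellum for 6 (Dbp, Bhlhe40, Tef, Cry2, Per3 and Nr1d1) and lower for the activator Rora, 35% called against 8.45% of all genes. In liver 8 fell and 5 rose, where 16.7% of all genes were called. In cerebellum 0 passed, which at 0.914% of all genes is near the background for 20 genes. Nr1d1, a repressor of the clock, fell by 1.00 in liver and had an estimate of -0.31 in cerebellum. Per3 read 5.55 to 7.45 CPM in WT and 2.69 to 4.50 CPM in KO liver, and 54.5 to 62.1 against 48.3 to 52.9 CPM in cerebellum, with no overlap in either tissue and a difference of 0.71 (adjusted p = 0.0141). Dbp and Tef proteins bind D-box elements, so promoters were searched for TTATGNAA on either strand. It occurred in 3.38% of all promoters and in 2.40% of those of tested genes. Of the clock genes with a promoter in the table, 2 of 16 tested (Per1 and Per3) and 1 of 6 called ones (Per3) held it. The promoter of Per3 (chr4:151044616-151044915, - strand, GRCm38.p6) is shown because it holds a match, with the matches in capitals.
Per3: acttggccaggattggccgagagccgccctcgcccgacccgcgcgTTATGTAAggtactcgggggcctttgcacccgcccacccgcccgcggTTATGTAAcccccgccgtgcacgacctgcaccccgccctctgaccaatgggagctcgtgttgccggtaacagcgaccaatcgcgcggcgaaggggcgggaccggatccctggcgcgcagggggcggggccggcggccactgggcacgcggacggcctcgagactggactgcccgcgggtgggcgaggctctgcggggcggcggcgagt
The matches begin 205 and 158 bases before the start site. Since the hour of collection was not given, time of day cannot be told apart from genotype for these genes.

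Genes of fatty acid synthesis were more often called in liver than all genes tested. Of 20 tested genes of fatty acid synthesis and storage, 9 fell and 3 rose in liver, where 16.7% of all genes were called, and 0 passed in cerebellum, near the 0.914% of all genes. The KO effect was higher in cerebellum for Fasn, Srebf1 and Elovl1 (lost in 10 of 28 alternatives) and lower for Lpin2, 20% called against 8.45% of all genes. Fasn, the fatty acid synthase, read 2118, 2051, 2523 and 2422 CPM in WT and 1449, 1457, 1025 and 957 CPM in KO liver, and 157 to 181 against 182 to 199 CPM in cerebellum. Its difference was 1.08 ± 0.16 (adjusted p = 0.000716). Srebf1, the regulator of this pathway, read 456 to 612 CPM in WT and 268 to 294 CPM in KO liver. Of 25 cholesterol genes, 7 fell and 1 rose in liver, where 16.7% of all genes were called. The difference was called for 8% of them, near the 8.45% of all genes, and for Mvd, an enzyme of the mevalonate pathway, it was 1.10. The coactivator Ppargc1a and the ketone enzyme Bdh1 were called among 25 genes of fatty acid oxidation, both with a higher effect in liver, a share of 8% near that of all genes, and the call of Bdh1 was lost in 19 of 28 alternatives. Glycolysis had 3 of 16 members higher in cerebellum (Eno1, Gapdh and Tpi1), or 18.8%, but the call of Tpi1 was lost in 18 and that of Gapdh in 3 of 28 alternatives.

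Several matrix genes fell in liver. Of 24 collagens and matrix genes, 7 had a higher effect in cerebellum, 29.2% against 4.55% of all genes, and 0 a lower one. In liver 8 fell and 0 rose, beside 16.7% of all genes called, and in cerebellum 0 passed, near the 0.914% of all genes. Col1a1 read 16.7 to 23.99 CPM in WT and 9.22 to 12.2 CPM in KO liver, and 9.93 to 11.8 against 12.8 to 13.4 CPM in cerebellum, apart in both tissues with a difference of 1.25 ± 0.16 (adjusted p = 0.000244). Col1a2 and Col3a1 differed by 0.93 and 0.95. In bulk tissue, fewer cells of a type and less RNA per cell cannot be told apart. Of 9 tested stellate cell and fibroblast markers, 4 fell in liver (Col1a1, Col3a1, Acta2 and Pdgfrb) and Rgs5 rose, where 16.7% of all genes were called. The difference was called for 4 of them, 3 higher and 1 lower in cerebellum, or 44.4% against 8.45% of all genes. The summed level of the list was 396 to 414.7 CPM in WT and 359.9 to 456.6 CPM in KO liver. Reln made up the largest part of that sum, with means of 177.8 CPM in WT and 206.9 CPM in KO liver. Its part in the matrix genes was not tested.

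Of the 34 genes called in cerebellum only, 22 had a higher and 12 a lower effect in cerebellum, and the 22 included 4 tRNA synthetases (Mars, Yars, Sars and Wars) and the ribosomal proteins Rpl8 and Rpl13. Tcf7l2, a Wnt effector and midbrain marker, rose, with 7.81, 8.47, 7.38 and 7.23 CPM in WT and 25.4, 29.3, 16.4 and 14.6 CPM in KO. Its difference was 1.52 ± 0.24 (adjusted p = 0.00121). The transporter Slc17a6, absent from liver and so not tested, read 9.44, 8.74, 5.38 and 7.23 CPM in WT and 22.9, 26.0, 13.1 and 14.3 CPM in KO cerebellum. The summed level of 15 midbrain markers was 55.0 to 67.2 CPM in WT and 78.2 to 113 CPM in KO cerebellum, and that of 11 forebrain markers 70.4 to 77.0 and 100.2 to 127 CPM. KO 5 and 6 held the highest levels of Tcf7l2 and Slc17a6. The same order held for Zfhx3 (34.6 and 34.5 CPM in KO 5 and 6 and 18.6 CPM in KO 8, against 10.2 to 13.9 CPM in WT), Meis2 and, among genes called in both tissues, Enc1. Zfhx3 and Meis2 were chosen after their values were seen, and others of the 34, such as Mars and Rpl8, did not have it. Without KO 5 and 6, 60 genes were called in cerebellum and 802 for the difference. The part of midbrain tissue in these rises was not tested.

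**Figure D5:**
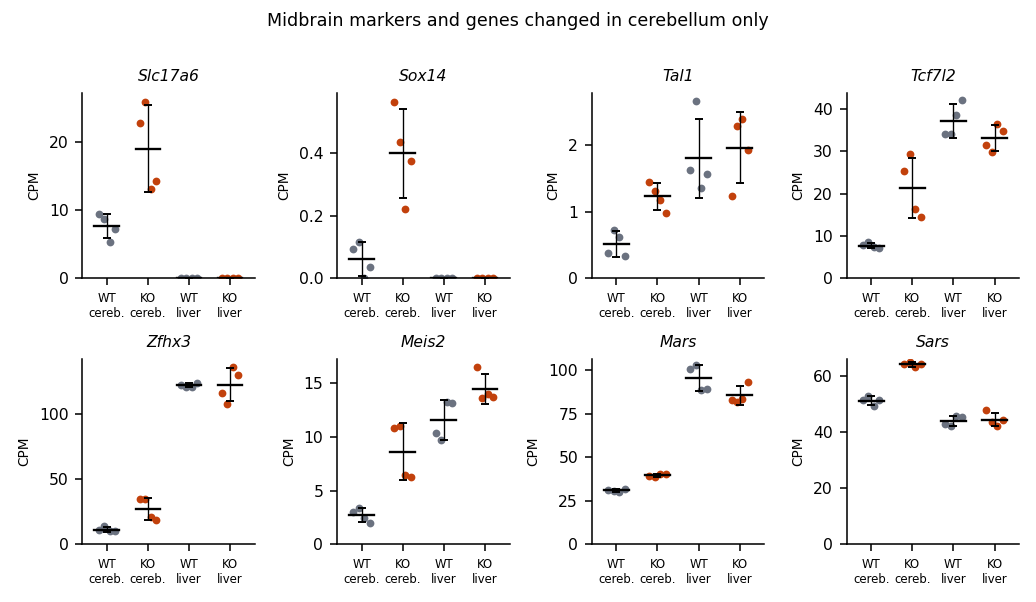
Level in CPM (y axes, from 0) of the midbrain markers Slc17a6, Sox14, Tal1 and Tcf7l2 and of 4 genes called in cerebellum only, for WT (grey) and KO (orange) libraries. Points are libraries, black lines group means and bars SD (n = 4). Zfhx3 and Meis2 are highest in the same 2 KO cerebellum libraries as Slc17a6, while Mars and Sars are level across the 4.

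Among the called tRNA synthetases, Aars was 124 and 121 CPM in KO cerebellum 5 and 6 and 132 and 129.7 CPM in 7 and 8, and Sars 64.4, 65.0, 63.1 and 64.4 CPM. Iars was higher in KO 5 and 6, at 44.5 and 45.5 CPM, than in KO 7 and 8, at 41.9 and 40.7 CPM. Choroid plexus markers also varied, summing to 74.7 to 1298 CPM in WT and 86.3 to 470.1 CPM in KO cerebellum, with Ttr at 675 and 695 CPM in WT 1 and 2, 228 and 223 CPM in KO 7 and 8 and 1.40 CPM or less in the other 4. Without these 4 libraries, which leaves 2 per genotype in cerebellum, 116 genes were called for the difference and 2 had opposite effects. Eif2s3y, a Y-linked initiation factor gene, fell in KO cerebellum from 32.9 to 36.9 CPM to 14.7 to 26.8 CPM and lay between 17.9 and 26.1 CPM in liver. Of other Y-linked genes, Ddx3y was 32.3 to 37 CPM in WT and 26.1 to 31.6 CPM in KO cerebellum. Kdm5d was 39.9 to 46.4 against 34.1 to 39.9 CPM, and Uty 31.9 to 37.2 against 27.6 to 36.3 CPM. The interferon-inducible neighbours Mndal and Ifi203 rose in cerebellum, Ifi203 by 1.46, from 2.60 to 3.28 CPM in WT to 6.45 to 9.33 CPM in KO. They are close paralogs between which reads may be split.

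The KO effect differed for 0 of 23 interferon-stimulated genes, 0 of 12 cell cycle genes, 0 of 17 glucocorticoid-responsive genes and 1 of 75 nuclear respiratory chain genes (Cox6c, lost in 10 of 28 alternatives). At 8.45% of all genes, the zeros in lists of 12 to 23 genes are near the background. All 13 mitochondrially encoded mRNAs had a negative difference, with a median of -0.39 and of -0.60 with quantile normalization, and 0 passed. Their medians were -0.42 in cerebellum and 0.08 in liver. Of 79 cytosolic ribosomal protein genes 3 differed (Rpl8, Rpl13 and Rpl39), or 3.80%, below the share of all genes. Their calls were lost in 2, 12 and 13 of 28 alternatives. In liver 21 of the 79 rose and 1 fell, and in cerebellum 3 rose, beside 16.7% and 0.914% of all genes called. Of 46 ribosome biogenesis genes, Rrp12, Bop1 and Bysl had a higher effect in cerebellum, or 6.52%, and of 58 tRNA modification enzymes Tyw1, Dus3l, Nsun2, Dus1l and Trmt61a, which is 8.62% and near the share of all genes. Among these, Bysl was lost in 12, Nsun2 in 14, Dus1l in 11 and Dus3l in 5 of 28 alternatives, and Trmt61a in 14 of 27. Of 23 ER chaperones, Syvn1 and Hyou1 had a higher effect in cerebellum and Hsp90b1 and Dnajc3 a lower one, or 17.4%, but Syvn1 was lost in 16 and Hsp90b1 in 9 of 28 alternatives. Of 19 p53 targets, Sesn2 and Aen had a higher one and Trp53inp1 (lost in 3 of 28 alternatives) a lower one, or 15.8%. The shares were 8.70% of 23 heat shock genes (Stip1 and Hsph1, lost in 7 and 17 of 28 alternatives), 5.26% of 19 immediate early genes (Dusp5), 2.86% of 35 proteasome genes (Psmc4, lost in 6) and 4.55% of 22 oxidative stress genes (Gstm1, lost in 2), near or below that of all genes. In the growth hormone and IGF axis, Igfbp3 was higher by 1.00 and Igfbp5 and Irs2 lower by 0.60 and 0.90 as differences, 17.6% of the 17 genes tested, with Irs2 lost in 6 of 28 alternatives. By transcript type, 516 of the 523 genes with a higher effect in cerebellum were protein-coding, against 399 of the 448 with a lower one and 10632 of the 11489 tested. Those with a lower effect included 23 provisional (TEC) models and 20 long noncoding RNAs. Of all 321 TEC models tested 27 were called, or 8.41%, near the 8.45% of all genes. Genes with a lower effect in cerebellum were longer than those with a higher one, with a median span of 42018 bp against 25711 bp, beside 23392 bp for all genes tested.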

How the data were processed

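RNA-seq expected counts per gene were deposited by the authors, who made stranded, ribosome-depleted total RNA libraries from mouse tissues, aligned paired reads to mm10 with STAR and estimated counts with RSEM against GENCODE M21. The strand setting and the versions of both tools are not given in the sources used here. The 16 liver and cerebellum libraries were grouped by the labels and tested here with limma 3.58.1 (voom, TMM factors from edgeR 4.0.16, R 4.3.3), as the difference of KO effects, with Benjamini-Hochberg adjustment at 0.05. Expected counts were rounded for the edgeR and DESeq2 1.42.0 alternatives only. Genes needed 1 CPM in 4 of 8 libraries of each tissue. Tested on simulated data with 200 of 11489 genes changed by a log2 of 1, the fit recovered 85.5%, with 5.0% false calls. The simulated libraries were independent, had a shared spread per gene in both tissues, and changed only genes above a minimum mean count. Unequal spread between tissues and resemblance between neighbouring libraries were not simulated, so these rates may not hold for the real libraries. Same-group libraries were compared for duplicates by chi-square, and none were found.

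The members, gene lists and tests were chosen with earlier results of these data known. The genes named are the 12 largest called differences each way, where the mean log2 CPM reached 1 in both tissues and WT and KO libraries were apart in at least 1 tissue, up to 12 with opposite and 6 with same-sign effects, up to 5 called genes per list, and Thumpd1, Nat10, Eif2ak4, Atf4, Ddit3, Asns and Trib3. Predicted genes, pseudogenes and small RNAs were left out. Other genes named were chosen after their values were seen. Depth limits precision to counting error and library spread.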

Additional observations from a re-analysis of the deposited data

Results flagged for a closer look

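The KO effect differed between cerebellum and liver for 971 genes by the test of the interaction. Among these, the effects were opposite for Synpo, with a difference of 1.10 on the log2 scale, Sulf2 (1.49), Slc1a4 (0.95), Aars (0.64), Rangap1 (0.56), Rian (-1.62), Rcc2 (0.45), Rrp12 (0.65), Arl5a (-0.52), Tanc2 (0.77), Tle3 (0.57) and Sesn2 (0.80).

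In 5 of 172 groups of 4 libraries, one library lay far from the other 3, which chance gives in about 1 group in 20. These were the lowest KO cerebellum library for Dpy19l3 at 47.3 CPM, the lowest WT liver library for Aars at 315 CPM, the lowest WT cerebellum library for Tanc2 at 47.3 CPM, the highest WT liver library for Tiam2 at 16.5 CPM and the highest WT cerebellum library for Thumpd1 at 17.4 CPM.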

How the results depend on the processing

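No called gene changed the sign of its difference under any alternative, and counts of differing genes stayed within 1.5 times of 971 with edgeR, quantile normalization, median-ratio size factors, library totals, TMM without noncoding RNAs, a minimum of 5 CPM, weights per tissue and all 24 libraries. The counts of opposite effects and of cerebellum calls were less stable. Opposite genes numbered 7 and cerebellum calls 65 with edgeR, and 6 and 53 with library totals. DESeq2 called 1573 differences (857 higher and 716 lower in cerebellum), 32 opposite and 270 in cerebellum. With no filter 429 differed (219 and 210), 18 were opposite and 527 were called in cerebellum. Weights per tissue gave 41 opposite, 844 in cerebellum and 932 in liver, and weights per library 1980 differences (1061 and 919), 164 opposite and 1454 in cerebellum. Leaving out one library at a time gave 562 to 1407 differences (311 to 759 and 245 to 661), 4 to 21 opposite, 40 to 182 in cerebellum and 1289 to 2303 in liver.

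Further alternatives were chosen after seeing the data. Without KO cerebellum 5 and 6, 802 genes differed, 8 were opposite and 60 were called in cerebellum. Without the 4 cerebellum libraries high in choroid plexus markers the counts were 116 (75 and 41), 2 and 15, with 1231 in liver. With neighbouring libraries summed they were 4 (4 and 0), 0 and 3, with 89 in liver, from 2 samples per group. Without 3 noncoding-rich liver libraries they were 1576 (864 and 712), 61 and 529, and with the noncoding share as a covariate 731 (347 higher), 5 and 39, with 3041 in liver. The causes of these shifts were not tested.

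With the replicate block 1130 genes differed, sharing 842 with the 971. The labels do not say whether same-numbered libraries of the 2 tissues share an animal. Their deviations correlated between -0.18 and 0.16, with 2 of 8 above 0.1. Of the 8 liver libraries, 4 correlated best with their own number. Correlations this weak between different tissues cannot decide whether the numbers pair the tissues. Signs turned for 3 genes that were not called. Thumpd1 gave 0.14 with quantile normalization. Eif2ak4 gave 0.075 with weights per library and 0.073 without the noncoding-rich libraries, and it ranged from -0.070 (without WT liver 1) to 0.057 (without WT liver 4) when single libraries were left out, with 0.0098 without KO cerebellum 6 and 0.031 without KO liver 6. Ddit3 gave -0.014 without WT liver 2. Among named genes not called, calls were gained by Atf4 with weights per library, Trib3 with DESeq2, and Thumpd1 without KO liver 5 (adjusted p = 0.027), without KO cerebellum 5 and 6 (0.0476) and without the noncoding-rich libraries (0.0341). Of 100 called genes among those named by rule, 58 passed with the replicate block and in every alternative of the first paragraph that tested them. The other 42 were lost in at least 1. Genes were tested in 27 or 28 of these alternatives. Medians of the gene lists moved by more than the spread between libraries in 88 of 1416 recomputed values.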
